A study of Mus musculus with 3 samples.

Results

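The transcripts described here encode 9 proteins that act in the making of replication-dependent histone mRNAs, 8 of them at the 3′ end and Npat in transcription, and they were taken by symbol from the 32285 genes listed for each library. All 9 symbols (Slbp, Npat, Casp8ap2, Lsm10, Lsm11, Eri1, Zfp473, Cpsf3 and Cstf2) occurred once in the gene list, and all 9 had a mean of at least 1 CPM (UMIs per 1000000 in the library, a UMI being 1 captured molecule), the floor that 12252 genes passed. E14 cells, a line of mouse embryonic stem cells derived on a 129/Ola background, were kept in serum with leukemia inhibitory factor. From 24 h after seeding they received 250 µg/mL cycloheximide, which blocks translation elongation, in 0.007% ethanol for 3 h or 6 h, or ethanol alone for 6 h as the control. Each of these 3 groups was 1 library of polyadenylated RNA from cells that had been frozen and thawed, with no ethanol control of 3 h. No difference below therefore has a replicate check, and the 95% intervals cover counting error only, not the spread between cultures or library preparations.

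Replication-dependent histone mRNAs are unusual in ending in a conserved stem-loop rather than a poly(A) tail, and they are made mainly in S phase, when new DNA must be packaged. The stem-loop binding protein Slbp holds that end, the U7 small nuclear ribonucleoprotein pairs with the RNA downstream of it, and the endonuclease Cpsf3 cuts between them. The same stem-loop is later the place where decay of the mRNA starts, which is why histone mRNA levels can follow the pace of DNA synthesis. Because the libraries captured polyadenylated RNA, histone transcripts in them are those that carried or could prime from adenosine runs, whereas the transcripts of the 9 processing factors are ordinary polyadenylated mRNAs.

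The element that Slbp binds is shown for Hist3h2a (5.07, 129 and 224 CPM in the control, 3 h and 6 h libraries) and Hist1h4d (39.9, 197 and 212 CPM), with the stem-loop in capitals and flanking bases in lower case. Both are from GENCODE M21 transcripts on GRCm38, at chr11:58955172-58955187 on the plus strand for Hist3h2a and chr13:23581950-23581965 on the plus strand for Hist1h4d. Each is among the 2 highest 6 h ratios of its histone class, so these examples were chosen on measured values. Their transcript models do not end at the stem-loop but run on for 1643 and 770 bases.
Hist3h2a: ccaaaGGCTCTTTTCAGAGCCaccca
Hist1h4d: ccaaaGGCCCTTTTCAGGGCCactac
A stem-loop of this form, with a perfectly paired stem around a loop of T bases that ends in C or A, was found in transcript models of 40 of 64 replication-dependent histone genes. The letters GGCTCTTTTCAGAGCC were in 26 of them, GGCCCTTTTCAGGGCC in 7, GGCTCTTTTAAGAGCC in 5 and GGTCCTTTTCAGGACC in 2. The summed CPM of genes with a match were 2094, 5095 and 5300. The median log2 ratio of those above the floor was 1.88 at 6 h, beside 1.93 for the genes with no match found. A model that ends before the stem-loop, or a variant stem, would go unmatched, so the unmatched genes are not shown to lack the element.

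Promoters are shown for Slbp, Npat and Casp8ap2, which had the 3 highest ratios between the S phase end and the G2M end of a cell cycle score in the control (below), so that these windows were chosen on measured values. Each run holds 250 bases before and 50 after the RefSeq start on GRCm38.p6, written 5′ to 3′ along the gene. Capitals mark CCAAT boxes on either strand and, in Casp8ap2, the E2F motif TTTGGCGC. The windows are chr5:33652525-33652824 on the minus strand for Slbp, chr9:53536797-53537096 on the plus strand for Npat and chr4:32615220-32615519 on the plus strand for Casp8ap2.
Slbp: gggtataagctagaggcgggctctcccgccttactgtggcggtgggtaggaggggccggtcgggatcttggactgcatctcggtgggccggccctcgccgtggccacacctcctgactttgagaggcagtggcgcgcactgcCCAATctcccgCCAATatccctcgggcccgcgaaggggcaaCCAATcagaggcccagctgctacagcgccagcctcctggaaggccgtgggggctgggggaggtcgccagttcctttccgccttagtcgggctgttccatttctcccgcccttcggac
Npat: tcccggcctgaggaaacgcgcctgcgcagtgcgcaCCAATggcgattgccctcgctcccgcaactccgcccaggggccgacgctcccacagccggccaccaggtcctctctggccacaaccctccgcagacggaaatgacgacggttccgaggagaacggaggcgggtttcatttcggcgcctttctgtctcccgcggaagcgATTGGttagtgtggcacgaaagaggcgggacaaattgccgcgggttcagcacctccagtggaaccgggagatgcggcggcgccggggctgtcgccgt
Casp8ap2: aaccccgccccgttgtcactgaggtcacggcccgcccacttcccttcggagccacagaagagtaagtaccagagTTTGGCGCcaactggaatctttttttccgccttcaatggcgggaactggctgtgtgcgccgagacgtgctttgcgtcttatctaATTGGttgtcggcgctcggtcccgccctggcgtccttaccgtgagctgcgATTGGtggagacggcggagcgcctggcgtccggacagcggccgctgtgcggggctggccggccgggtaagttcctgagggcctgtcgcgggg
CCAAT (or ATTGG, its reverse complement) occurred 3 times in the Slbp window, and 2 times each in those of Npat and Casp8ap2. Of 27025 promoters of that length, 37.9% had at least 1 CCAAT, 12.2% at least 2 and 3.56% at least 3. The RefSeq table matched 8 of the 9 members, all but Eri1. Among the other 5, Lsm10 had 1 CCAAT, the windows of Lsm11, Cpsf3 and Cstf2 had 0, and of 3 listed starts of Zfp473 the first had 0 and the others 1 each. Of the E2F letters TTTCGCGC, TTTGGCGC and TTTCCCGC, searched on both strands and present in 1.91% of promoters, Casp8ap2 alone among the matched members had a match, which began at position -176 from its start. TATAAA occurred in 0 of the member windows, against 14.2% of promoters. These matches describe letters, not binding.

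The libraries were read over barcodes with at least 15000 unique molecular identifiers (UMIs) and with 1 to 20% mitochondrial UMIs. This kept 2187 control barcodes, 1739 of the 3 h library and 2554 of the 6 h library, with 106842407 to 140321458 UMIs per library and medians of 43160 to 51726 UMIs per barcode. It left out 62 control barcodes below 1% mitochondrial UMIs, against 1 at 3 h and 8 at 6 h. Of the kept UMIs, 4.57%, 3.51% and 2.94% were mitochondrial in the order control, 3 h and 6 h, and their part in the results was not tested. Pairs of libraries shared 1 to 3 kept barcodes. The 9 embryonic stem cell markers used for the check, among them Pou5f1 and Nanog, all had UMIs in every library, with means from 72.3 to 5191 CPM, whereas the 7 fibroblast markers summed to between 1.29 and 2.48 CPM and 3 or 4 of them had no UMI. Markers of primitive endoderm summed to 6.91 to 11.01 CPM, of mesoderm to 3.46 to 4.46, of neural cells to 9.42 to 14.5 and of 2-cell-like cells to at most 0.574. The part of these traces in the results was not tested.

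Across the 9 genes, Slbp was the only one at least 1.5-fold higher after 6 h of cycloheximide than in the control, and Zfp473 the only one at least 1.5-fold lower. In the same comparison 28.1% of the 12252 genes above the floor were at least 1.5-fold higher and 9.0% (1103 genes) at least 1.5-fold lower, so a count of 1 in 9 is below that background on the higher side and near it on the lower side. At 3 h, 0 members were past 1.5-fold upwards, against 18.7% of genes, and 1, Zfp473, downwards, against 3.57%. Between 6 h and 3 h no member was past this fold in either direction, where 6.32% of genes were higher and 3.09% lower. The median log2 ratio of the 9 members to the control was 0.12 at 3 h and 0.18 at 6 h, beside 0.14 and 0.22 for all genes above the floor. Both comparisons use the same control library.

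Where 0 lies depends on how libraries are scaled, so the medians of all genes given above belong beside every ratio below. TMM factors, which fit a scale to the bulk of genes, lowered every log2 ratio to the control by 0.17 at 3 h and 0.29 at 6 h (shifts of -0.17 and -0.29), and counting UMIs per barcode raised them by 0.27 and 0.11. Under TMM, 2097 genes were at least 1.5-fold higher and 2164 lower at 6 h, in place of 3443 and 1103, and at 3 h 909 were lower in place of 437. Slbp and Cstf2 stayed above the control and Zfp473 below it at both times under all 9 alternative settings of scaling, barcode filter, free RNA and prior count.

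**Figure D1:**
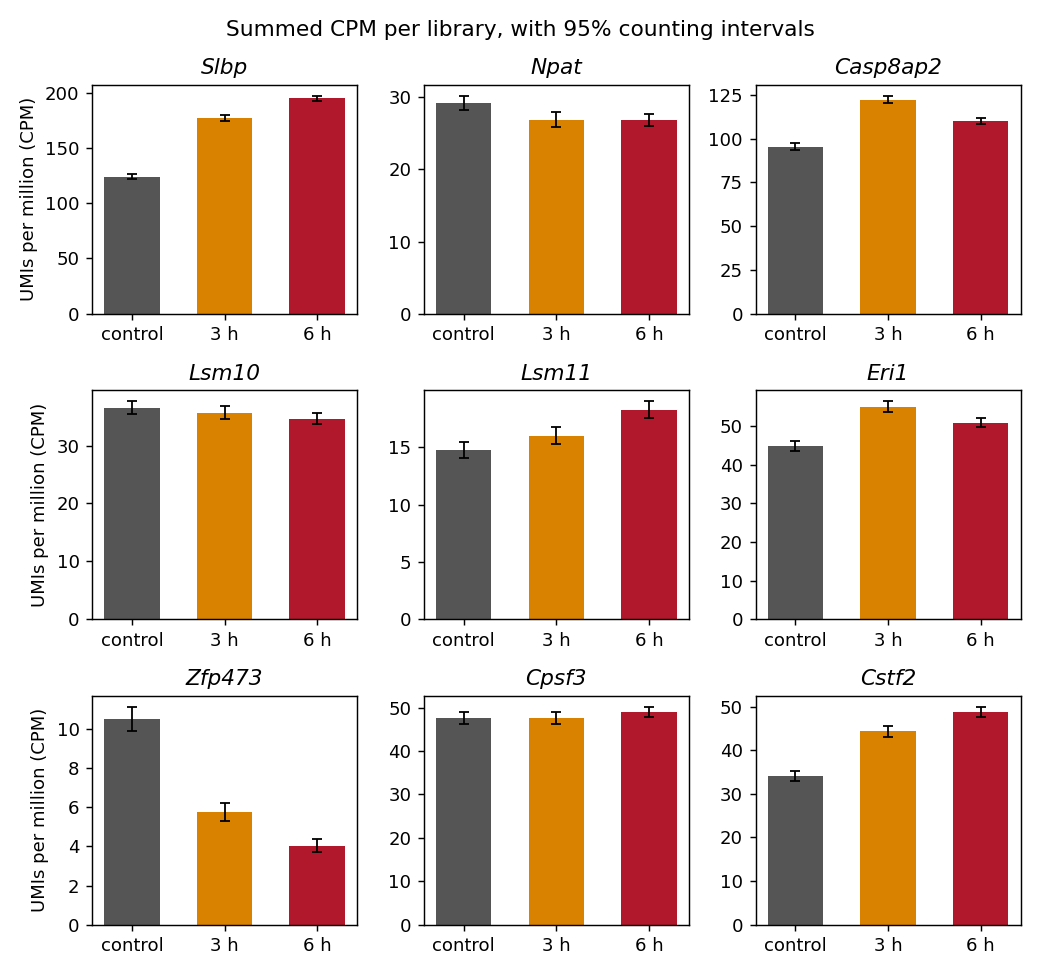
Summed CPM of each of the 9 transcripts in the control, 3 h and 6 h libraries (bars, 1 library each), with 95% Poisson counting intervals, on axes that start at 0 and differ between genes. Slbp stood at 124, 177 and 195 CPM and Zfp473 at 10.5, 5.77 and 4.04 CPM.

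Slbp (ENSMUSG00000004642, chromosome 5, 33634952 to 33652574, minus strand) encodes the stem-loop binding protein, which stays with the histone mRNA from processing through export and translation. It was the most abundant of the 9 transcripts in every library. The control held 124 CPM of it (interval 122 to 126), the 3 h library 177 CPM (175 to 180) and the 6 h library 195 CPM (193 to 197). None of the 3 intervals overlapped. Against the control, the log2 ratio was 0.52 after 3 h (0.48 to 0.55) and 0.65 after 6 h (0.62 to 0.68), or 0.38 and 0.43 above the median gene. Under TMM the 6 h ratio was 0.37, which is less than 1.5-fold. These ratios lay at percentiles 78.0 and 74.8 of all genes. Gm10459 is annotated on the opposite strand across Slbp, and whether counting used strand is not given in the sources used here.

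Npat (ENSMUSG00000033054, chromosome 9, 53537047 to 53574342, plus strand) encodes the coactivator of histone gene transcription that is phosphorylated by cyclin E with Cdk2. Npat had 29.2 CPM (28.2 to 30.2) without cycloheximide, 26.9 (25.9 to 27.9) after 3 h and 26.9 (26.03 to 27.8) after 6 h. The cycloheximide libraries overlapped each other and lay just below the control. The log2 ratio was -0.12 at both times, which became 0.15 at 3 h when UMIs were counted per barcode, and it was 0.25 and 0.34 below the median gene (-0.25 and -0.34).

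Casp8ap2 (ENSMUSG00000028282, chromosome 4, 32615451 to 32653265, plus strand) encodes FLASH, a scaffold of the histone locus body that binds Lsm11. The control library had 95.5 CPM (93.7 to 97.4), the 3 h library 122 (120 to 125) and the 6 h library 110.1 (108 to 112). The 3 h library was highest, the control lowest, and the 6 h library between them without overlap. The log2 ratio was 0.36 after 3 h (0.32 to 0.39) and 0.20 after 6 h (0.17 to 0.24), the latter turning to -0.08 under TMM. With barcodes of 0 to 20% mitochondrial UMIs the ratios were 0.42 and 0.27, outside both intervals. Subtracting free RNA as 10% of each library gave 0.30 at 3 h, also outside. The cause of these moves was not tested. Between 6 h and 3 h the log2 ratio of Casp8ap2 was -0.15 (-0.19 to -0.12).

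Lsm10 and Lsm11 encode the ring proteins that set the U7 particle apart from the spliceosomal ones, where they take the places of the Sm proteins D1 and D2. Lsm10 (ENSMUSG00000050188, chromosome 4, 126096623 to 126098584, plus strand) gave 36.5 CPM (35.4 to 37.6) for the control library, 35.7 (34.6 to 36.8) for 3 h and 34.6 (33.7 to 35.6) for 6 h. All 3 CPM intervals overlapped. The log2 ratios of Lsm10 were -0.03 (-0.10 to 0.03) at 3 h and -0.08 (-0.14 to -0.02) at 6 h, the latter leaving out 0. They became 0.24 and 0.03 per barcode. Lsm11 (ENSMUSG00000044847, chromosome 11, 45928269 to 45944935, minus strand) gave 14.8 CPM (14.1 to 15.5) for the control library, 16.01 (15.3 to 16.8) for 3 h and 18.3 (17.6 to 19.02) for 6 h. The 6 h library of Lsm11 lay above the control and the 3 h library, whose CPM intervals overlapped. Its log2 ratio to the control was 0.31 at 6 h (0.22 to 0.40), which was 0.02 under TMM. The 3 h ratio of 0.12 (0.02 to 0.22) left out 0 but became -0.06 under TMM. Snrpd1 and Snrpd2, the D1 and D2 genes, were named after their values were seen and had log2 ratios of 0.28 and 0.01 at 6 h.

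Zfp473 (ENSMUSG00000048012, chromosome 7, 44731480 to 44751050, minus strand) encodes a zinc finger protein, ZFP100 in the older literature, that contacts both the stem-loop complex and Lsm11. It was the scarcest of the 9 and had the log2 ratio farthest from 0. Its UMIs numbered 1173, 616 and 567 in the order control, 3 h and 6 h, which gave 10.5 CPM (9.93 to 11.1), 5.77 CPM (5.32 to 6.24) and 4.04 CPM (3.71 to 4.39). Each later library was lower than the one before, without overlap. The log2 ratio to the control was -0.87 after 3 h (-1.01 to -0.73) and -1.38 after 6 h (-1.53 to -1.24), at percentiles 1.34 and 1.33 of all genes. Over the 9 alternatives the 6 h ratio of Zfp473 ran from -1.67 under TMM to -1.27 per barcode, and the 3 h ratio from -1.04 to -0.60. Vrk3, which overlaps Zfp473 on the opposite strand, had a ratio of -0.23 at 6 h.

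Eri1 (ENSMUSG00000031527, chromosome 8, 35465253 to 35496196, minus strand) encodes a 3′ to 5′ exonuclease that binds the stem-loop beside Slbp and trims it. Eri1 stood at 44.9 CPM (43.6 to 46.1) without cycloheximide, 54.97 (53.6 to 56.4) after 3 h and 50.9 (49.7 to 52.05) after 6 h. As with Casp8ap2, the 3 h library was highest and the control lowest. The log2 ratios were 0.29 and 0.18, and the 6 h value became -0.11 under TMM.

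Cpsf3 and Cstf2 also serve ordinary polyadenylation. Cpsf3 (ENSMUSG00000054309, chromosome 12, 21285391 to 21315056, plus strand), the nuclease that cuts both kinds of pre-mRNA, stood at 47.6 CPM (46.3 to 48.9) without cycloheximide, 47.6 (46.3 to 48.9) after 3 h and 49.002 (47.9 to 50.2) after 6 h. All 3 intervals overlapped. Its log2 ratio at 6 h was 0.04 with an interval of -0.01 to 0.09, and -0.24 under TMM. At 3 h it was 0.00, and -0.17 under TMM. Cpsf3 overlaps Itgb1bp1 on the opposite strand, whose CPM were 28.4, 25.2 and 30.1. Cstf2 (ENSMUSG00000031256, chromosome X, 134059187 to 134086819, plus strand) encodes the RNA-binding subunit of the cleavage stimulation factor. The control library had 34.03 CPM (32.96 to 35.1), the 3 h library 44.4 (43.1 to 45.6) and the 6 h library 48.8 (47.6 to 49.96), with no overlap. Cstf2 had a log2 ratio of 0.38 after 3 h (0.32 to 0.44) and 0.52 after 6 h (0.46 to 0.58), and 0.23 at 6 h under TMM.

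**Figure D2:**
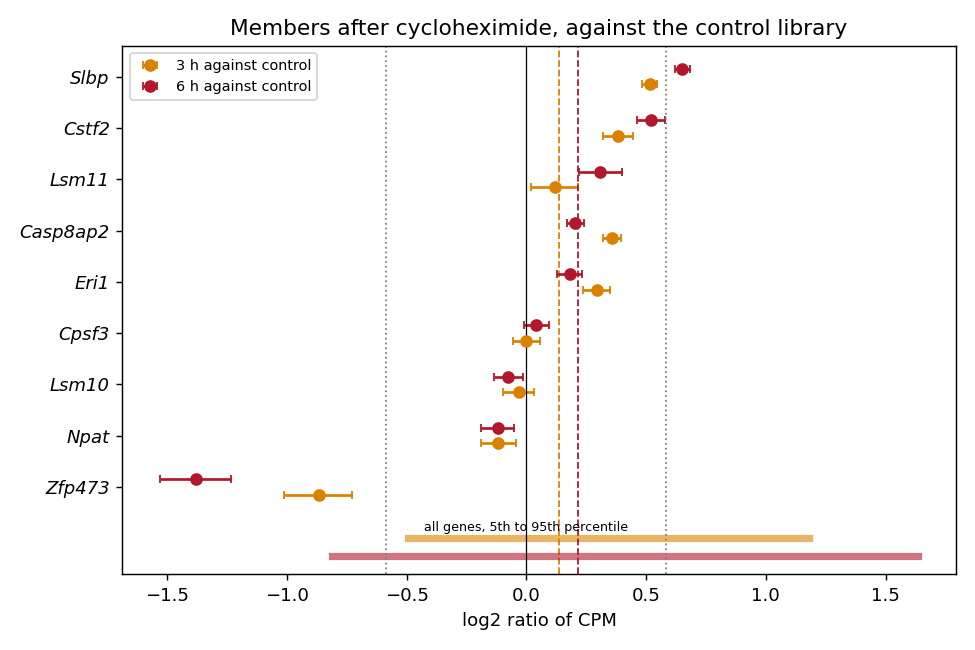
Log2 ratios of CPM to the control at 3 h and 6 h for each transcript (points, with 95% counting intervals), beside the median of all genes (dashed), the 1.5-fold limits (dotted) and the 5th to 95th percentile of all genes (bars at the foot, -0.50 to 1.18 at 3 h and -0.81 to 1.63 at 6 h). Zfp473 lies to the left of both bars at -0.87 and -1.38, and the other 8 lie within them.

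The order of the levels in the control, in CPM of 3′ tags that are not scaled by transcript length, was Slbp, Casp8ap2, Cpsf3, Eri1, Lsm10, Cstf2, Npat, Lsm11 and Zfp473. The intervals of Lsm10 and Cstf2 came close without overlap (35.4 and 35.1), as did those of Cpsf3 and Eri1 (46.3 and 46.1). At 6 h the order was Slbp, Casp8ap2, Eri1, Cpsf3, Cstf2, Lsm10, Npat, Lsm11 and Zfp473. Eri1, Cpsf3 and Cstf2 were then at 50.9, 49.002 and 48.8 CPM, each interval overlapping the next. Cstf2 thus lay below Lsm10 in the control and beside Cpsf3 at 6 h.

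The fraction of barcodes with a UMI was compared after thinning each barcode to 15000 UMIs, so that depth was equal. A UMI of Slbp was found in 81.8% of control barcodes (80.1 to 83.4, exact binomial), in 90.9% of those of the 3 h library (89.5 to 92.2) and in 92.1% of those of the 6 h library. For Zfp473 the shares were 13.7% (12.3 to 15.2), 7.53% (6.34 to 8.88) and 5.29% (4.45 to 6.23), and for Cstf2 40.4%, 47.2% and 51.5%. Casp8ap2 was found in 74.3%, 81.7% and 78.8% of barcodes, and Eri1 in 49.1%, 56.0% and 52.4%, both highest at 3 h. Lsm11 was detected in 19.4%, 18.2% and 22.7%, and since the first pair goes against its CPM, no order is read from it. Npat was found in 34.8%, 31.6% and 31.4% of barcodes, Lsm10 in 43.5%, 41.6% and 39.3%, and Cpsf3 in 49.8%, 51.5% and 51.8%. Unthinned shares ran from 17.9% for Zfp473 at 6 h to 99.5% for Slbp at 3 h.

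**Figure D3:**
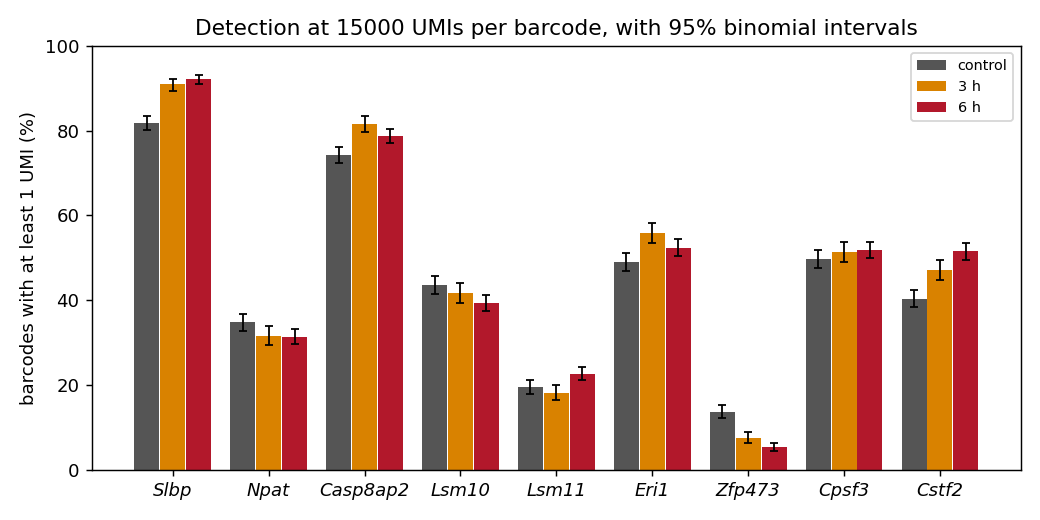
Percentage of barcodes with at least 1 UMI of each transcript after thinning to 15000 UMIs per barcode (bars from 0 to 100%, 95% exact binomial intervals) in the control, 3 h and 6 h libraries. Slbp reached 92.1% at 6 h, and Zfp473 was found in 13.7% of control and 5.29% of 6 h barcodes.

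Free RNA in barcodes of 10 to 100 UMIs held these transcripts too, and no cell type lacking them was at hand as a blank. Slbp had 123, 187 and 199 CPM there in the order control, 3 h and 6 h, Zfp473 had 9.17, 7.26 and 2.55 CPM, and Casp8ap2 63.4, 125 and 86.2 CPM. The shares above therefore count barcodes where a UMI was seen, which can include free RNA, rather than cells that express the gene. Subtracting free RNA as 10% of each library left the log2 ratios to the control at 6 h at 0.65 for Slbp, 0.54 for Cstf2 and -1.34 for Zfp473.

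Since histone mRNAs are made in S phase, the members were next set against a cell cycle score. Barcodes were ranked within each library by the log2 ratio of UMIs of S phase genes to UMIs of G2M genes, without members or histone genes, and cut into 4 classes from the G2M end to the S end. The score is a range of transcript levels, not a measure of DNA content, and the S end had shallower barcodes, with a median of 36256 UMIs against 49388 at the G2M end of the control. Of the genes that made up the score and had a mean of at least 20 CPM, Ube2c and Aurka were farthest down (log2 ratios of -1.92 and -1.75 between the S end and the G2M end of the control) and Dscc1 and Ung farthest up (1.10 and 1.10). Histone UMIs, which were not used in the score, were at 1601 CPM at the G2M end and 4236 CPM at the S end of the control. In the 3 h library they were at 5012 and 7813 CPM. At 6 h they were at 5362 and 7318 CPM, with 7777 CPM in the class before the S end, so this check is weaker there.

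In the control library Slbp, Npat and Casp8ap2 were all higher towards the S end. Slbp and Casp8ap2 belong to the S phase gene list behind the score and were taken out of it as members. Their rise with that list is therefore not an independent result. Slbp had 100.1, 119, 134 and 151 CPM in the 4 classes from the G2M end to the S end, a log2 ratio of 0.59 between the ends (0.52 to 0.66). This is just past 1.5-fold, which 2.91% of genes exceeded upwards, and it was 0.51 with 3 classes. Casp8ap2 had 82.3, 91.3, 98.7 and 114 CPM (0.47, interval 0.39 to 0.55). Npat had 26.8, 26.3, 29.2 and 36.2 CPM (0.44, interval 0.29 to 0.58), with most of its difference in the class at the S end. The ratios of Slbp, Casp8ap2 and Npat lay at percentiles 97.2, 95.5 and 94.7 of all genes, whose median was 0.01.

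Zfp473 ran the other way. In the control it had 13.9, 12.6, 8.63 and 5.75 CPM from the G2M end to the S end, a log2 ratio of -1.27 (-1.57 to -0.99), at percentile 0.612. It was the only member at least 1.5-fold lower at the S end, where 4.61% of all genes were. Lsm10 was lower there too, by a smaller ratio of -0.27 (-0.41 to -0.14). The end-to-end ratios of Lsm11 and Cstf2 were 0.24 and 0.17, and the intervals of Eri1 (0.06) and Cpsf3 (0.07) included 0.

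For Slbp, Casp8ap2 and Npat, which are singled out here for their high control ratios, the ratio between the ends was smaller in the cycloheximide libraries, a difference for which 1 library per group allows no test. The end-to-end log2 ratio of Slbp, 0.59 without cycloheximide, was 0.31 after 3 h (0.25 to 0.37) and 0.13 after 6 h (0.08 to 0.18). Casp8ap2 had 0.47, 0.26 and 0.05, and Npat 0.44, 0.28 and 0.02. At 6 h the intervals of Casp8ap2 (-0.01 to 0.12) and Npat (-0.11 to 0.15) included 0. Cpsf3 had 0.07, 0.12 and 0.16, with overlapping intervals (-0.05 to 0.18, -0.002 to 0.23 and 0.06 to 0.26), so no order is read from it. Its 6 h ratio was the highest of the 9 in this setting only. With the score on unthinned UMIs, without barcodes above 2 times the median UMIs and with 3 classes, Cpsf3 had 0.11, 0.12 and 0.10 at 6 h. Slbp then had 0.12, 0.16 and 0.12. Zfp473 kept a difference, with ratios of -1.27, -0.56 and -1.26, and at 6 h it had 6.75 CPM at the G2M end against 3.17, 3.03 and 2.81 CPM in the other classes. The range of the score also differed. Its class medians ran from -1.34 to -0.18 in the control, from -0.91 to 0.12 at 3 h and from -0.70 to 0.22 at 6 h, and the 5th to 95th percentile of the end-to-end ratios of all genes spanned -0.56 to 0.45 in the control and -0.44 to 0.31 at 6 h. The part of this range in the members' ratios was not tested. At 3 h 0 members were past 1.5-fold between the ends, beside 1.84% of genes upwards and 3.97% downwards. At 6 h 0 members were higher, beside 1.29% of genes, and 1, Zfp473, lower, beside 2.66%.

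**Figure D4:**
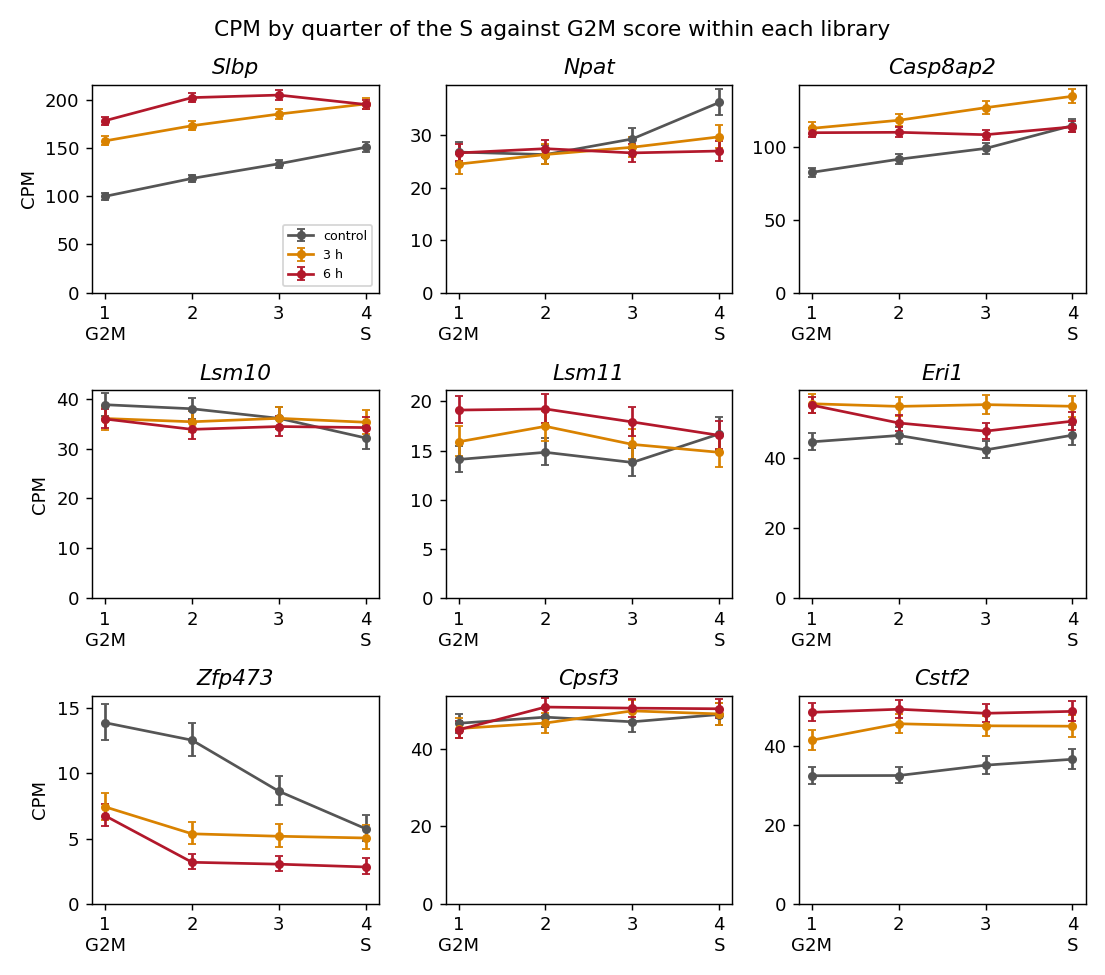
CPM of each transcript (vertical axes from 0, differing between genes) in 4 classes of barcodes ranked by S against G2M score within each library, from the G2M end (1) to the S end (4), with 95% Poisson intervals. In the control, Slbp goes from 100.1 to 151 CPM and Zfp473 from 13.9 to 5.75 CPM, while at 6 h Casp8ap2 and Npat are nearly level.

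Set against the control class by class, Slbp differed most at the G2M end. Its log2 ratio at 6 h was 0.84 there (0.77 to 0.90), then 0.77, 0.62 and 0.37 (0.31 to 0.43) at the S end. At 3 h the series was 0.66, 0.55, 0.47 and 0.38. Casp8ap2 at 6 h went from 0.41 at the G2M end to -0.01 at the S end, where its interval (-0.08 to 0.06) included 0. Npat had -0.01 at the G2M end and -0.43 (-0.57 to -0.28) at the S end. Cstf2 was higher than the control in all classes at 6 h, by 0.58, 0.60, 0.46 and 0.41. Zfp473 was lower in all classes at 6 h, by log2 ratios of -1.04, -1.98, -1.51 and -1.03.

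Because scores lay nearer S in the cycloheximide libraries, equal ranks do not mean equal scores, and libraries were also compared within fixed ranges of the score, a choice made after seeing the data. In barcodes with scores from -1 to -0.5, Slbp had 126, 167 and 187 CPM in the order control, 3 h and 6 h, and in those from -0.5 to 0 it had 149, 185 and 202 CPM. Its 6 h log2 ratio was 0.57 and 0.44 in these ranges, beside 0.65 over all barcodes. Zfp473 had 10.6, 5.49 and 5.44 CPM in the lower range and 6.37, 5.27 and 3.40 CPM in the upper, with 6 h ratios of -0.96 and -0.91 beside -1.38. Scores may still differ between libraries inside a range, and their part in the differences was not tested. At 3 h the ratio of Zfp473 was -0.95 in the lower range and -0.27 in the upper, where its interval (-0.56 to 0.02) included 0. The 6 h ratios of Cstf2 were 0.57 and 0.41, of Casp8ap2 0.24 and -0.03, and of Npat -0.15 and -0.25, beside medians of all genes of 0.27 and 0.21.

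Spread between barcodes was read from the Fano factor, the variance over the mean of thinned UMIs, which is 1 for counting error alone. Casp8ap2 had the highest of the 9 in each library, with 1.22, 1.23 and 1.23, at percentiles 81.2 to 86.7 of genes with a mean within 1.2-fold of its own. Slbp had 1.19, 1.19 and 1.22. Zfp473 had 1.12 in the control, at percentile 92.6 of genes of like mean, but 1.06 at 3 h (percentile 73.5) and 1.03 at 6 h (percentile 53.1). Lsm10 (0.97) and Cstf2 (0.99) were near 1 in the control. Between members, Pearson's r across barcodes ranged from -0.05 to 0.11 over 36 pairs in 2187 control barcodes, from -0.07 to 0.08 at 3 h and from -0.03 to 0.04 at 6 h. At the few UMIs per barcode of these genes (0.154 to 1.89 in the control), such values carry no finding.

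The genes closest to each member were sought over 12 values, the CPM in 4 classes of 3 libraries, by Euclidean distance of centred log2 values among genes of at least 20 CPM. Slbp was nearest to Fahd1 (0.23) and Slc25a16 (0.27), against a median distance of 1.03 to 5568 genes. Nktr and Helb were nearest to Casp8ap2 (0.20 and 0.21), Prps2 and Man1a2 to Npat (0.20 and 0.21), Mms19 and Med19 to Cstf2 (0.15 and 0.15). For Lsm10 they were Epb41l4a and Rpsa (0.14 and 0.16), for Lsm11 Gtf2h2 and Atp6v1b2 (0.18 and 0.25), for Eri1 Snx18 and Bag5 (0.11 and 0.14) and for Cpsf3 Fkbp3 and Nudt5 (0.10 and 0.11). Zfp473 was not matched, since its mean was under 10 CPM.

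The remaining genes of the pathway were taken from lists set by role. Over all genes above the floor, 28.1% were at least 1.5-fold higher at 6 h and 9.0% lower, against which the counts below are to be read. Of 18 other cleavage and polyadenylation factors, 2 were at least 1.5-fold higher at 6 h, 1 was lower and 15 were neither, with a median log2 ratio of 0.03 beside 0.22 for all genes. The 2 were Cstf2t, the intronless paralogue of Cstf2 (13.8, 28.2 and 27.1 CPM, a 6 h ratio of 0.98), and Pcf11, a termination factor (31.7, 46.8 and 54.6 CPM, 0.78). Rbbp6, a ubiquitin ligase of the cleavage machinery, was the lower gene, with 87.3, 55.8 and 55.1 CPM and a ratio of -0.66. In the Sm core and snRNP assembly list 2 of 12 genes were higher at 6 h and 0 lower, with a median of -0.09. Both belong to the SMN complex that loads Sm rings onto snRNA, namely Gemin2 (56.4, 84.5 and 109.9 CPM, 0.96) and Smn1 (97.1, 124 and 158 CPM, 0.70). The complex did not move together, since Gemin5 and Gemin6, also of it and on this list, had 6 h ratios of -0.43 and -0.15. Gemin5 and Gemin6 were named after their values were seen.

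Among 20 genes for the cap, export, translation and decay of histone mRNA, 1 was higher, 1 lower and 18 neither at 6 h, with a median of 0.03. Tut7, a uridylyl transferase that tags histone mRNA for decay, had 26.9, 42.5 and 41.7 CPM (0.63), and the decapping enzyme gene Dcp2 had 100.7, 75.8 and 57.7 CPM (-0.80). Of 18 genes for transcription and cell cycle control, 6 were higher, 2 lower and 10 neither, near the shares over all genes, with a median of 0.24. The highest was Hinfp, an activator of histone H4 genes (10.98, 20.96 and 26.4 CPM, 1.26). The lower genes were E2f2 (20.04, 8.94 and 5.71 CPM, -1.81) and Ccnf, which encodes the cyclin F that targets Slbp for degradation (106, 76.1 and 62.1 CPM, -0.77). At 3 h these 4 lists held 1, 0, 1 and 1 higher genes and 1, 0, 0 and 1 lower genes, in the order given, where 18.7% of all genes were higher and 3.57% lower.

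Of 56 histone genes above the floor, 49 were at least 1.5-fold higher and 1 lower at 6 h, beside 28.1% and 9.0% of all genes, with a median log2 ratio of 1.91. Summed UMIs of the 64 replication-dependent histone genes were 2753 CPM without cycloheximide, 6501 after 3 h and 6877 after 6 h, log2 ratios of 1.24 and 1.32. By class at 6 h the ratio of the sums was 3.34 for H2B, 2.05 for H3, 1.999 for H4, 1.11 for H2A and 0.50 for H1. The medians over genes gave another order, with 2.47 for H2B, 1.76 for H4, 1.73 for H2A, 1.64 for H3 and 0.79 for H1. Single abundant genes weigh on the sums, since Hist1h2ap held 1241 of the 1582 CPM of H2A in the control, and Hist1h1b, with a ratio of -0.70, held 458 of the 795 CPM of H1. Hist1h2ap was named after its values were seen. Reads shared between near-identical histone copies make single genes uncertain. How such reads were counted is not given, and whether the class sums avoid this was not tested. The highest ratio among the 9 factors, that of Slbp, was below the ratio of the histone sum at both times and, at 6 h, above that of the H1 sum. The histone sums hold only transcripts that carried or could prime from adenosine runs. They are therefore not a like measure to the ordinary polyadenylated mRNA of Slbp.

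**Figure D5:**
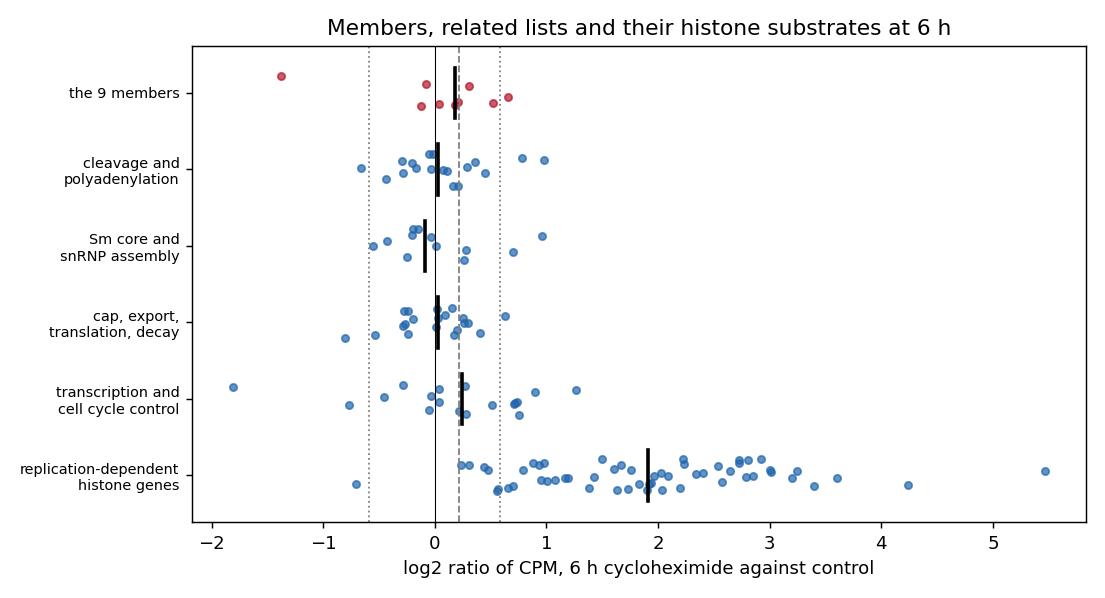
Log2 ratios of CPM at 6 h against the control for the 9 members, 4 lists of related genes and the replication-dependent histone genes above 1 CPM (points are genes, bars list medians, the dashed line the median of all genes at 0.22 and dotted lines 1.5-fold). The members and related lists centre between -0.09 and 0.24 and the histone genes at 1.91.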

How the data were processed

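Gene by barcode matrices of 3 single-cell libraries (10x Genomics 3′ v3, 1 per group) were used. The deposited values are raw UMI counts, made with Cell Ranger 4.0.0 on mm10 per the submitters' processing notes, with all 6794880 barcodes listed and no cells called. The annotation behind the gene list, and how reads on overlapping or near-identical genes were counted, are not given in the sources used here. Gene positions are those of GENCODE M21 on GRCm38.

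UMIs were summed over barcodes with at least 15000 UMIs and 1 to 20% mitochondrial UMIs and expressed as CPM, 87.3% to 92.9% of each library's UMIs. No doublets were removed. Log2 ratios used a prior of 0.5 counts and exact conditional binomial 95% intervals. CPM have exact Poisson and shares exact Clopper-Pearson intervals. With 1 library per group no test was made. Calls are ratios past 1.5-fold, counted among genes averaging 1 CPM or more over the libraries. The score used 40 S and 52 G2M genes, and percentiles rank a gene among those above the floor.

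Alternatives were TMM factors (edgeR 4.0.16), UMIs per barcode, other barcode filters, thinning depths, floors, priors and score classes. The ratio calculation was tested on simulated data. Members and lists were chosen with earlier results of these data known. Named genes were all members, the 2 highest and 2 lowest past 1.5-fold at 6 h in each related list, and the 2 nearest genes per member. A gene that this rule names is not reported here. Python 3.11.15, numpy 2.4.6 and scipy 1.17.1 were used.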

Additional observations from a re-analysis of the deposited data

Results flagged for a closer look

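Lsm11 was flagged because its difference along the cell cycle score had opposite signs in 2 libraries, with counting intervals that left out 0 in both. Between the S end and the G2M end its log2 ratio was 0.24 in the control (0.04 to 0.45) and -0.21 at 6 h (-0.37 to -0.04), a difference of -0.45. From the G2M end to the S end Lsm11 had 14.1, 14.8, 13.8 and 16.7 CPM in the control, and 19.1, 19.2, 17.9 and 16.5 CPM at 6 h. The control classes did not rise in order, and the class before the S end was the lowest. Across barcodes, Pearson's r of Lsm11 with the score was -0.02 in the control, opposite in sign to the end-to-end ratio, and -0.007 at 6 h. At the few UMIs of Lsm11 per barcode, such r values carry no finding. The difference between the libraries was not tested (1 library per group). The 3 h library lay between them, with -0.10 and an interval (-0.31 to 0.11) that included 0.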

How the results depend on the processing

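No paired analysis was possible because each group had 1 library. Of the log2 ratios to the control, none past 1.5-fold changed sign under any alternative run. At 6 h, 1 member was at least 1.5-fold higher by CPM, 0 under TMM factors and 2 per barcode (Slbp and Cstf2). At 3 h, 0 members were higher by CPM and 3 per barcode (Slbp, Cstf2 and Casp8ap2). A floor of 10 CPM took out Zfp473 and so left 0 lower members at 3 h and at 6 h. Between 6 h and 3 h, 1 member (Zfp473) was lower under TMM and 1 per barcode, in place of 0. These moves follow from the scaling or from the floor itself. Counts of all genes moved too. At 3 h, 4189 were higher per barcode in place of 2290, 1057 with the 10 CPM floor and 6579 with no floor, and 909, 168, 162 and 2398 were lower under TMM, per barcode, with the floor and without one, in place of 437. At 6 h, 2097 were higher under TMM, 1678 with the floor and 9304 without one in place of 3443, and 2164, 593 and 2811 lower in place of 1103. For 6 h against 3 h, 484, 406, 132 and 5239 were higher under TMM, per barcode, with the floor and without one in place of 774, and 606, 743, 192 and 2159 lower in place of 379. Of 81 alternative end-to-end ratios along the score, 79 stayed within the counting interval. Slbp in the control moved to 0.51 with 3 classes, and Casp8ap2 at 3 h to 0.34 with a score on unthinned UMIs, and the cause was not tested. At 6 h Zfp473 rests on 567 UMIs, or 86 to 260 per score class, so its values carry the widest intervals.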
